A study of Mus musculus with 6 samples.

Results

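The 9 genes described here encode the haemoglobin chains and 2 further proteins of red cells, and they were chosen by name from the 18810 genes measured in mouse atrioventricular canal (AVC) regions. Hba-a1 and Hba-a2 encode the adult alpha chain, Hbb-b1 and Hbb-b2 the adult beta chain, Hba-x the embryonic alpha-like zeta chain, and Hbb-y and Hbb-bh1 embryonic beta-like chains. Alas2 encodes the red cell form of 5-aminolevulinate synthase, which starts haem synthesis, and Slc4a1 encodes band 3, the anion exchanger of the red cell membrane. All 9 were in the table. The AVC regions, which held the mitral, tricuspid and aortic valves, were dissected from the hearts of C57BL/6 embryos at embryonic day (E) 15.5, and RNA was sequenced from 3 Scx-/- embryos, which lack the transcription factor scleraxis, and from 3 Scx+/+ littermates, with 1 library per embryo. The cells were not sorted, so the RNA of red cells lying in the tissue was sequenced with that of valve and myocardium, and in such bulk libraries fewer red cells and less RNA per red cell cannot be told apart. The values are RPKM, reads divided by exon length and by library depth, so levels of different genes are compared per length.

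Haemoglobin is a tetramer of alpha-like and beta-like chains, each holding a haem group. In the mouse embryo the red cells of the first wave arise in the yolk sac, enter the circulation as nucleated cells and make the embryonic chains. Red cells of the fetal liver make the adult chains and take over the circulation as gestation goes on, so that late fetal blood holds mainly this later population.

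The genes lie in 2 clusters and at 2 single loci. On chromosome 11 of mm9, on the plus strand, Hba-x (ENSMUSG00000055609, chr11:32176400-32178116) is followed by Hba-a1 (ENSMUSG00000069919, chr11:32183511-32184465) and Hba-a2 (ENSMUSG00000069917, chr11:32196489-32197301). On chromosome 7, on the minus strand, the order in the direction of transcription runs from Hbb-y (ENSMUSG00000052187, chr7:111000259-111001754) to Hbb-bh1 (ENSMUSG00000052217, chr7:110990150-110991678), Hbb-b1 (ENSMUSG00000052305, chr7:110975048-110976610) and Hbb-b2 (ENSMUSG00000073940, chr7:110961038-110962510). Alas2 lies on the X chromosome (ENSMUSG00000025270, chrX:146981918-147005181, plus strand) and Slc4a1 on chromosome 11 (ENSMUSG00000006574, chr11:102210138-102227517, minus strand). The merged exons of the 7 haemoglobin genes were 614 to 938 bases long, against 2403 bases in 11 blocks for Alas2 and 4891 bases in 25 blocks for Slc4a1.

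How far the reads of one chain can be told from those of another depends on the coding sequences. Hbb-b1 and Hbb-b2 were identical at 440 of 441 coding bases and Hba-a1 and Hba-a2 at 425 of 426. Hbb-y and Hbb-bh1 each shared 74.4% of aligned coding bases with Hbb-b1 and 76.4% with each other, and Hba-x shared 63.9% with Hba-a1. The first 60 coding bases in mm9 are shown for 1 adult gene of each family and for the embryonic genes, because they show where an embryonic read differs from an adult one. Capitals mark bases that differ from the adult gene of the same family, and they number 18 in Hbb-bh1, 19 in Hbb-y and 28 in Hba-x, compared base by base without gaps. These 60 bases of Hbb-b2 and Hba-a2 equal those of Hbb-b1 and Hba-a1.
Hbb-b1: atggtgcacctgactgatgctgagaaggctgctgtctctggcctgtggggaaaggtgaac
Hbb-bh1: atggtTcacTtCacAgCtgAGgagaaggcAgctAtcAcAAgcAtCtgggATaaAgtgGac
Hbb-y: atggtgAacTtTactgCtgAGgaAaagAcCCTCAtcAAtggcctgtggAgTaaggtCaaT
Hba-a1: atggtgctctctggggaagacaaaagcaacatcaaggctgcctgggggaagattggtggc
Hba-x: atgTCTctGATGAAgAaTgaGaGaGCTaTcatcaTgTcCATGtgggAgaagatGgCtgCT
The stretches lie at chr7:110976330-110976389 (Hbb-b1), chr7:110991565-110991624 (Hbb-bh1), chr7:111001607-111001666 (Hbb-y), chr11:32183707-32183766 (Hba-a1) and chr11:32176664-32176723 (Hba-x). Over the whole exons, 72.3% of the 50-base runs of Hba-a1 and 88.9% of those of Hba-a2 occurred in the other copy, as did 41.2% for Hbb-b1 and 51.2% for Hbb-b2. No 50-base run of Hba-x, Hbb-y or Hbb-bh1 occurred in another haemoglobin gene. The adult copies are therefore uncertain singly and are also given as sums, whereas reads of the embryonic chains have no identical stretch of that length in the other globin genes.

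The promoters were read from the RefSeq promoter table (GRCm38.p6), and 7 of the 9 genes had an entry there whose 150 bases before the start matched mm9 exactly. The textbook elements searched on both strands were the CACCC box and the CCAAT box, the GATA elements AGATAA and also TGATAA, and the start site elements TATAAA and its variant CATAAA, and a match is a description of letters only. Stretches are shown for the most abundant chain type, for the member that varied most and for the haem enzyme, each cut where the Ensembl gene begins, with these motifs in capitals.
Hba-a2: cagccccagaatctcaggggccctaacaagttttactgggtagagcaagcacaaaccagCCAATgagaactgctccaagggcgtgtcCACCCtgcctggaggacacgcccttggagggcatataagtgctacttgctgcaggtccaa
Hbb-y: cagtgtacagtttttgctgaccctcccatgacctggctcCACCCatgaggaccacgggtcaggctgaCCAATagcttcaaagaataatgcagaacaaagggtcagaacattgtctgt
Alas2: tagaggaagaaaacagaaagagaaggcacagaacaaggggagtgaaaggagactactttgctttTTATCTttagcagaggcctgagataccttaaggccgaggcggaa
They lie at chr11:32196342-32196488 (Hba-a2), chr7:111001755-111001871 (Hbb-y) and chrX:146981810-146981917 (Alas2). In Hbb-y, CACCC began at position -111 and CCAAT at -83 from the RefSeq start, and CATAAA followed at -29, beyond the stretch shown. Hba-a2 had CCAAT at -91 and CACCC at -63. Alas2 had AGATAA at -86, read from the other strand. It also had CACCC on the other strand at -40, -35 and -30, beyond the stretch shown. CACCC was in the window of all 7 members with a promoter entry and in 37.4% of the windows of 32851 promoters. CCAAT was in Hba-a1, Hba-a2, Hbb-b1, Hbb-b2 and Hbb-y and in 24.5% of all windows, AGATAA only in Alas2 among these members and in 5.65% of all windows, and CATAAA only in Hbb-y and in 6.33%. TATAAA was in Hba-x and Hbb-b2 and in 7.57% of all windows, and TGATAA was in Hba-x and in 4.45%. No matches overlapped within these windows.

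The libraries held 46429956 to 68571049 reads, by the depth at which the deposited RPKM correspond to whole reads. In Scx+/+ replicate 2 the 10 most abundant genes took 56.9% of the RPKM sum, against 30.7% to 43.9% in the other 5 libraries, and 2252 genes stood at the low fill-in value of 0.0949 RPKM, against 1088 to 1465. Scx-/- replicate 3 and Scx+/+ replicate 2 had the highest summed RPKM of 8 cardiomyocyte markers, 26594 and 29119 against 16173 to 21990 in the other 4. Singly, Myh6, Tnnt2, Tnni3, Actc1 and Myl2 were highest in this pair. Myh7, Myl7 and Nppa were not, with 2148, 355 and 453 RPKM in Scx-/- replicate 3. The pair was also highest in the myeloid markers S100a8 and S100a9 (3.84 and 11.2 RPKM of S100a8 against 0.382 to 1.37), while the myeloid markers Ngp and Ptprc were not highest in both. The genotype differences of the members are also given without these 2 libraries. Whole-gene Scx read 18.6 to 82.9 RPKM in Scx-/- and 26.0 to 58.3 RPKM in Scx+/+ libraries. The genotypes overlapped, the highest value was in Scx-/- replicate 3, and these values therefore do not check the labels. The study itself reported a large decrease of Scx exon 1 in the Scx-/- samples, found before sequencing. The whole-gene value includes exon sequence outside that exon. Whether this explains why Scx was not lower in Scx-/- libraries was not tested. Xist exceeded 1 RPKM in replicate 2 of both genotypes only.

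The adult chains were among the most abundant RNAs of every library. Hba-a1 measured 4181, 4241 and 2711 RPKM in Scx-/- and 2464, 2866 and 4168 RPKM in Scx+/+ libraries, always listed here in the order of their replicate numbers. Hba-a2 measured 3850, 3947 and 2502 RPKM in Scx-/- and 2282, 2571 and 3814 RPKM in Scx+/+ libraries. Both alpha genes were high in Scx-/- replicates 1 and 2 and Scx+/+ replicate 3 and lower in the other 3 libraries, and the genotypes overlapped. Among the beta genes, Hbb-b1 measured 2472, 2750 and 1996 RPKM in Scx-/- and 1388, 2436 and 2753 RPKM in Scx+/+ libraries. Hbb-b2 measured 2899, 3179 and 2280 RPKM in Scx-/- and 1606, 2760 and 3171 RPKM in Scx+/+ libraries. The lowest library for both beta genes was Scx+/+ replicate 1, and again the genotypes overlapped. Over all 6 libraries the adult genes ranked between place 28 (Hba-a1, best) and place 56 (Hbb-b1, worst) of 18810 genes by RPKM.

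Against this level the genotypes could not be separated. The 95% interval of each log2 fold change (Scx-/- minus Scx+/+) on log2(RPKM + 0.1) included 0, with -0.67 to 1.14 for Hba-a1 around 0.24, -0.63 to 1.14 for Hba-a2 around 0.25, -0.66 to 1.02 for Hbb-b1 around 0.18 and -0.67 to 1.06 for Hbb-b2 around 0.19 (limma). The p-values from limma, adjusted over all genes, were 0.972 for both alpha and 0.980 for both beta genes. Mean RPKM was 3711 ± 867 in Scx-/- and 3166 ± 891 in Scx+/+ (SD, n = 3 each) for Hba-a1, and 2786 ± 460 and 2512 ± 812 for Hbb-b2. Without Scx+/+ replicate 1, the log2 fold changes of Hbb-b1 and Hbb-b2 turned to -0.12 and -0.10. The direction between genotypes thus rested on 1 library for both beta genes. The alpha genes kept theirs but not its size, with 0.07 (Hba-a1) and 0.10 (Hba-a2) without Scx+/+ replicate 1 and 0.45 and 0.47 without Scx+/+ replicate 3. Without both Scx-/- replicate 3 and Scx+/+ replicate 2 the values were 0.39, 0.40, 0.42 and 0.43 for Hba-a1, Hba-a2, Hbb-b1 and Hbb-b2.

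The copies kept a narrow ratio. In RPKM, Hba-a1 stood at 1.07 to 1.11 times Hba-a2 and Hbb-b2 at 1.13 to 1.17 times Hbb-b1 over the 6 libraries. These ratios depend on merged exon length, 863 bases for Hbb-b1 against 703 for Hbb-b2. In reads, Hbb-b1 exceeded Hbb-b2 in every library. Most 50-base runs of the alpha copies are shared, so how reads were assigned and how much RNA each copy gave cannot be told apart in these ratios. Hbb-bh3, a beta-like pseudogene of the chromosome 7 cluster with no 50-base run in common with the members, read 109 to 247 RPKM. That was 3.24%, 3.23% and 3.54% of the summed adult beta genes in Scx-/- and 3.63%, 3.92% and 4.17% in Scx+/+ libraries. The genotypes overlapped in RPKM but not in this share, which was not tested. Neither Hbb-bh3 nor this share was among the planned genes and measures. Of all genes 9.5% did not overlap in RPKM, but no such percent was computed for shares of this kind.

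The embryonic chains were scarce beside the adult ones, and they varied to unlike extents. Hbb-y measured 49.6, 125 and 1.16 RPKM in Scx-/- and 59.2, 1.99 and 80.7 RPKM in Scx+/+ libraries. The other 4 libraries thus lay between 49.6 and 125 RPKM, well above Scx-/- replicate 3 and Scx+/+ replicate 2. These values rested on 1714, 5538, 46, 2348, 61 and 3660 reads. The exact 95% Poisson interval, which covers counting error only, was 0.853 to 1.55 RPKM for the 46 reads and 1.52 to 2.55 RPKM for the 61 reads, far from the lowest of the other libraries, 47.2 to 52.0 RPKM. The highest Hbb-y value was 107 times the lowest, which placed Hbb-y at place 36 by this ratio among the 13827 genes whose mean was 1 RPKM or more, with a median ratio of 1.79.

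Hba-x, the embryonic chain of the alpha cluster, spread far less over the libraries than Hbb-y did. It measured 24.1, 19.0 and 8.98 RPKM in Scx-/- and 14.0, 14.1 and 18.0 RPKM in Scx+/+ libraries, with 503 to 1197 reads. Scx-/- replicate 3 was again the lowest library, but Scx+/+ replicate 2 stood level with Scx+/+ replicate 1, and the highest value was 2.68 times the lowest. The ratio of Hba-x to Hbb-y was 0.486, 0.152 and 7.71 in Scx-/- and 0.236, 7.08 and 0.223 in Scx+/+ libraries. In 4 libraries Hbb-y exceeded Hba-x, and in Scx-/- replicate 3 and Scx+/+ replicate 2 the order was turned. Hbb-bh1 was near the limit of measurement, with 0.778, 0.624 and 0.665 RPKM from 32, 23 and 28 reads in Scx-/- replicate 2 and Scx+/+ replicates 1 and 3, and the fill-in value in the other 3 libraries. The 3 libraries at the fill-in value included both in which Hbb-y was low.

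**Figure D1:**
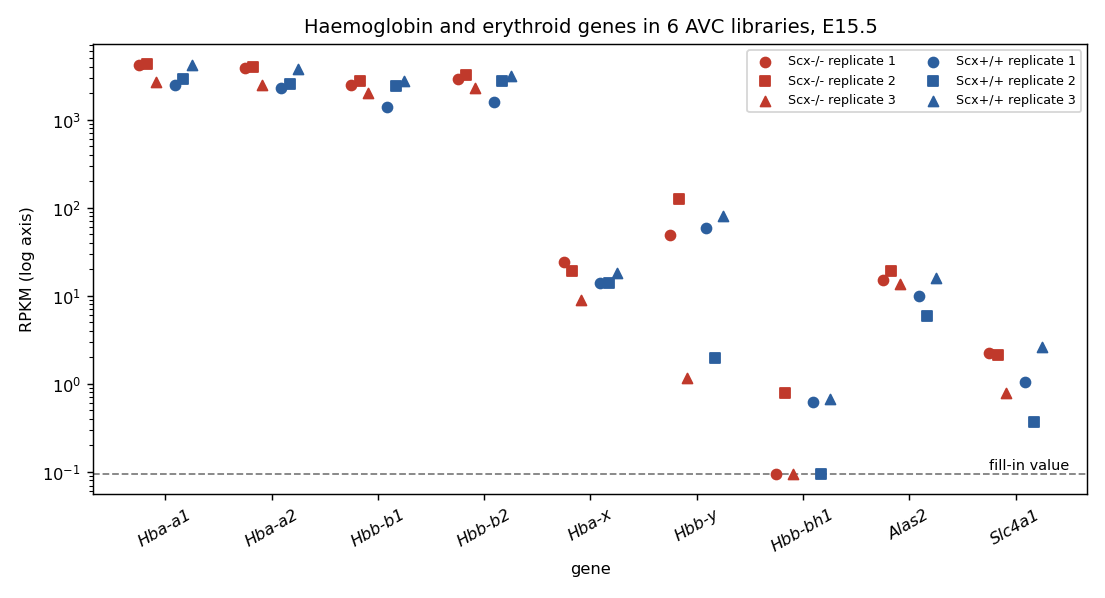
RPKM of the 9 genes on a log axis, with 1 point per library, red for Scx-/- and blue for Scx+/+, and 1 marker shape per replicate number. The adult chains lie between 1388 and 4241 RPKM in every library, while Hbb-y lies between 49.6 and 125 RPKM in 4 libraries and at 1.16 and 1.99 RPKM in Scx-/- replicate 3 and Scx+/+ replicate 2, and Hbb-bh1 stands at the fill-in value (dashed line) in 3 libraries.

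No genotype difference was detectable in the embryonic chains. The log2 fold change of Hbb-y was -0.12 with a 95% interval of -4.14 to 3.91 (limma, adjusted p = 0.997), an interval that leaves changes of many fold in either direction undetected. Since each genotype held 1 low library, the value turned to 1.87 without Scx-/- replicate 3, became -1.80 without Scx+/+ replicate 2 and was 0.19 without both. That of Hba-x was 0.07 (interval -0.68 to 0.83, limma, adjusted p = 0.995) and 0.43 without both libraries. For Hbb-bh1 the value of -0.56 (interval -2.42 to 1.29, limma, adjusted p = 0.971) depends on the fill-in value and is no bound on a fold. It was -0.85 without both libraries and ranged from -1.29 (without Scx-/- replicate 2) to -0.20 (without Scx-/- replicate 1 or 3) when single libraries were left out. Mean RPKM of Hbb-y was 58.6 ± 62.4 in Scx-/- and 47.3 ± 40.7 in Scx+/+, and of Hba-x 17.4 ± 7.69 and 15.3 ± 2.28 (SD, n = 3 each).

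Taken as a share within a library, which does not depend on its scaling, the embryonic part of the beta-like RNA was 0.916%, 2.08% and 0.0295% in Scx-/- and 1.96%, 0.0401% and 1.36% in Scx+/+ libraries. The mean was 1.01% ± 1.03 in Scx-/- and 1.12% ± 0.981 in Scx+/+ (SD, n = 3 each), so the genotypes differed by far less than the libraries within them. The difference of the means, -0.11 percentage points, was 0.38 without Scx-/- replicate 3, -0.65 without Scx+/+ replicate 2 and -0.16 without both. Hba-x held 0.299%, 0.232% and 0.172% of the alpha-like RNA in Scx-/- and 0.294%, 0.258% and 0.225% in Scx+/+ libraries, with means of 0.234% ± 0.0636 and 0.259% ± 0.0345. In the 4 libraries with high Hbb-y the embryonic share was thus larger for the beta-like than for the alpha-like chains, and in the other 2 it was smaller. The summed alpha-like over summed beta-like RPKM was 1.49, 1.36 and 1.22 in Scx-/- and 1.56, 1.05 and 1.33 in Scx+/+ libraries. Alpha-like RNA exceeded beta-like RNA in all 6 libraries, and the ratio was lowest in Scx+/+ replicate 2. The genotype means of that ratio were 1.35 ± 0.133 and 1.31 ± 0.256. Summed haemoglobin was 13476, 14263 and 9498 RPKM in Scx-/- and 7814, 10650 and 14006 RPKM in Scx+/+ libraries, and these genes took 0.591% to 1.08% of all reads. By RPKM and by share of reads the lowest library was Scx+/+ replicate 1, where Hbb-y was high. As a percent of the RPKM sum of each library, however, haemoglobin was 0.766% in Scx-/- replicate 3 and 0.464% in Scx+/+ replicate 2, against 0.953% to 1.55% in the other 4, so that on this scale the libraries low in Hbb-y were the lowest, and the order depends on the scaling. The RPKM sum itself was largest in that pair, at 1.24e+06 and 2.30e+06 against 8.20e+05 to 1.03e+06. By share of reads the pair stood at 0.721% and 0.811%, above the 0.591% of Scx+/+ replicate 1.

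**Figure D2:**
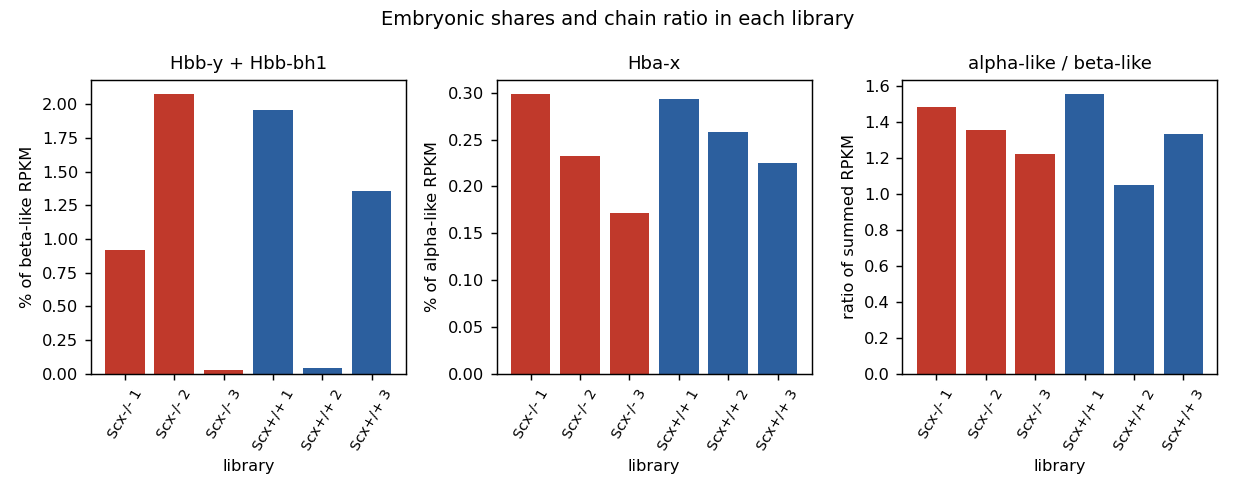
Bars give, for each library (red Scx-/-, blue Scx+/+), the embryonic share of beta-like RPKM, the share of Hba-x in alpha-like RPKM, both in percent, and the ratio of alpha-like to beta-like RPKM, each from 0. The beta-like share falls to 0.0295% and 0.0401% in Scx-/- replicate 3 and Scx+/+ replicate 2, while the share of Hba-x stays between 0.172% and 0.299% in all 6 libraries.

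Alas2 and Slc4a1 are expressed in red cell precursors and, unlike the globins, encode an enzyme and a membrane protein. Alas2 measured 15.1, 19.0 and 13.6 RPKM in Scx-/- and 9.86, 5.90 and 15.8 RPKM in Scx+/+ libraries, from 658 to 3052 reads. Scx+/+ replicates 1 and 2 lay below every Scx-/- library, but Scx+/+ replicate 3 lay above Scx-/- replicates 1 and 3, so the genotypes overlapped. Mean Alas2 was 15.9 ± 2.76 RPKM in Scx-/- and 10.5 ± 4.98 RPKM in Scx+/+ (SD, n = 3 each). Its log2 fold change of 0.69, with an interval of -0.06 to 1.43, had the smallest p among the 9 genes and did not pass the test (limma, unadjusted p of 0.0657, adjusted p = 0.967). Without Scx+/+ replicate 3 it rose to 1.04 with an unadjusted p of 0.0154 (limma), and without Scx+/+ replicate 2 it was 0.33 with an unadjusted p of 0.239, and 0.44 without both Scx+/+ replicate 2 and Scx-/- replicate 3. Per 1000 RPKM of summed haemoglobin, Alas2 was 1.12, 1.33 and 1.43 RPKM in Scx-/- and 1.26, 0.554 and 1.13 RPKM in Scx+/+ libraries, and Scx+/+ replicate 2 stood below the other 5.

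Slc4a1 measured 2.26, 2.13 and 0.791 RPKM in Scx-/- and 1.06, 0.365 and 2.64 RPKM in Scx+/+ libraries, from 83 to 885 reads. Its 2 lowest libraries were Scx+/+ replicate 2 and Scx-/- replicate 3, the same as for Hbb-y, and its highest value was 7.22 times its lowest. Mean Slc4a1 was 1.73 ± 0.812 RPKM in Scx-/- and 1.35 ± 1.17 RPKM in Scx+/+ (SD, n = 3 each), with a log2 fold change of 0.55 (interval -0.93 to 2.04, limma, adjusted p = 0.967). It turned to -0.091 without Scx+/+ replicate 2 and was 0.36 without both libraries. Per 1000 RPKM of summed haemoglobin, Slc4a1 was 0.168, 0.149 and 0.0832 RPKM in Scx-/- and 0.136, 0.0343 and 0.188 RPKM in Scx+/+ libraries, lowest again in that pair of libraries.

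Read together, none of the 9 genes passed the test between genotypes. At an unadjusted p below 0.05 (limma) 0 of 9 were called, where 3.89% of all 18810 genes were (2.82% higher and 1.06% lower in Scx-/-), and after adjustment 0% of all genes were called. In none of the 9 did the 3 libraries of one genotype all lie above those of the other, which 9.5% of all genes did. With 3 against 3 libraries an exact permutation test of a single gene cannot go below p = 0.1. The log2 fold change was above 0 for 7 of the 9 genes with a median of 0.19, beside a median of 0.10 over all genes, and each library's scaling moves all of these values together. When the median log2 ratio of each library was set to 0, Hba-x turned to -0.036.

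**Figure D3:**
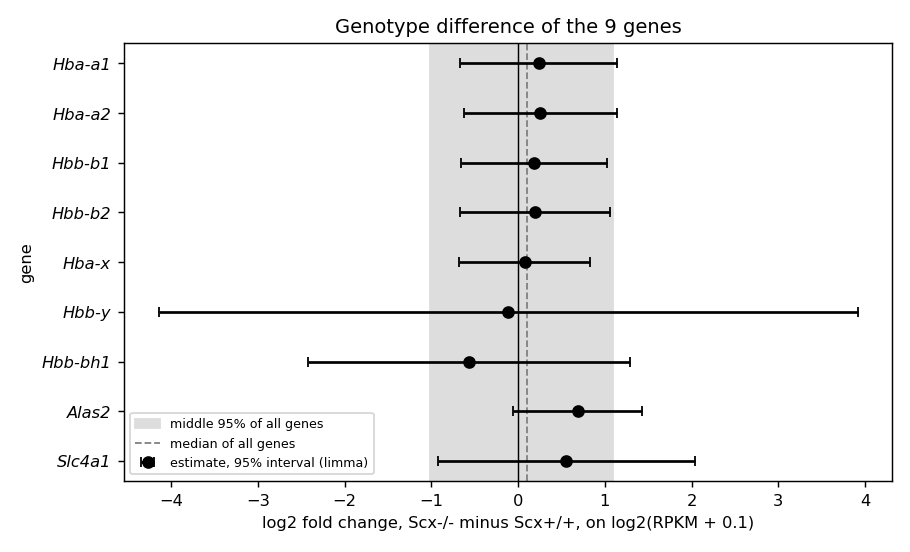
Log2 fold change of each gene, Scx-/- minus Scx+/+ on log2(RPKM + 0.1), with its 95% interval from limma, over a grey band for the middle 95% of all genes (-1.02 to 1.09) and a dashed line at their median. Every interval includes 0, and that of Hbb-y runs from -4.14 to 3.91.

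By mean RPKM over the 6 libraries the genes fell into steps. The adult chains came first, with means of 3439 (Hba-a1), 3161 (Hba-a2), 2649 (Hbb-b2) and 2299 (Hbb-b1) RPKM, and neighbours in this order did not differ beyond their spread over libraries. By RPKM, Hba-a1 exceeded Hba-a2, and Hbb-b2 exceeded Hbb-b1, in all 6 libraries. In reads, Hbb-b1 instead exceeded Hbb-b2 in all 6, with 71929 to 162930 against 67760 to 152862 reads. The beta order in RPKM thus rests on the merged exon lengths of 863 bases for Hbb-b1 and 703 for Hbb-b2. The next step held Hbb-y at 52.9, Hba-x at 16.4 and Alas2 at 13.2 RPKM, whose ranges over libraries overlapped, and the low values of Hbb-y reached into the range of Slc4a1. Slc4a1 at 1.54 RPKM lay below Alas2 and Hba-x in every library, and Hbb-bh1 came last, with a range that overlapped that of Slc4a1.

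The other genes of the red cell programme were taken from 5 lists of 65 names or identifiers, of which 47 were tested and 18 were not analysed here, among the latter Gata1, Klf1 and Epor. At an unadjusted p below 0.05 (limma) 1 of the 47 was called, lower in Scx-/-, and 0 were called higher, beside 1.06% and 2.82% of all genes. Their median log2 fold change was 0.12 with 32 of 47 above 0, beside 0.10 over all genes. The called gene was Spnb1, which encodes the beta spectrin of the red cell skeleton. It measured 2.667, 2.197 and 2.740 RPKM in Scx-/- and 3.304, 4.204 and 3.881 RPKM in Scx+/+ libraries, with every Scx-/- library below every Scx+/+ library. Its log2 fold change was -0.56 with an SE of 0.24 (limma, unadjusted p of 0.0425, adjusted p = 0.967), and the call was lost without any one of 4 libraries (Scx-/- replicates 1 and 2, Scx+/+ replicates 2 and 3), where the unadjusted p was 0.0543 to 0.0903.

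No list held more than 1 called gene. Of 7 transcription factors that act in red cell precursors 0 were called, with a median log2 fold change of 0.02, and the most abundant were Ldb1 (mean 8.13 RPKM) and Lmo2 (5.69), which form a complex with Tal1 (1.25), and Sox6 (1.83), a silencer of embryonic globin genes. Of 12 haem synthesis genes 0 were called and 11 had a value above 0, with a median of 0.20, beside 63.8% of all genes above 0. After libraries were rescaled to a common median, 9 of the 12 were above 0, beside 49.4% of all genes. That list was led by Tmem14c (36.8 to 77.0 RPKM), which carries porphyrin into the mitochondrial matrix, by Alas1 (mean 19.2 RPKM), the form of 5-aminolevulinate synthase used outside red cells, and by Urod (15.4) and Fech (15.1), of which Fech inserts the iron. Per length Alas1, at 12.9 to 25.4 RPKM, exceeded Alas2 in 4 libraries and lay below it in Scx-/- replicate 2 and Scx+/+ replicate 3, with 14.7 and 12.9 RPKM of Alas1 against 19.0 and 15.8 RPKM of Alas2. Of 12 identifiers for membrane and skeleton genes Spnb1 alone was called, with a median of -0.0038, and the most abundant were Tmod1 (54.7 RPKM), a cap of actin filaments that heart muscle also uses, the water channel Aqp1 (11.1) and Gypc with 2 identifiers (8.54 and 8.18).

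Of 9 genes for red cell enzymes and maturation 0 were called, with a median of 0.15, led by the peroxidase Prdx2 (94.1 RPKM), Bnip3l (32.0), which clears mitochondria, the catalase Cat (16.4) and Bpgm (10.3), which makes 2,3-bisphosphoglycerate. Of 7 genes of erythropoietin response and iron uptake 0 were called, with a median of -0.04, led by the ferritin chains Fth1 (94.5 RPKM) and Ftl1 (82.6), the transferrin receptor Tfrc (39.5) and the iron exporter Slc40a1 (3.08). Most of these genes are used by many cell types, so their levels do not follow red cells alone. The genotypes did not overlap for 4 of the 47 identifiers, beside 9.5% of all genes, among them Tfrc, higher in Scx-/-, and Spnb1 and 1 of the 2 Cd47 identifiers, lower, with Cd47 named after its values were seen. Of 3 clearance genes, Blvra (6.67 RPKM), Lrp1 (1.57) and Hmox1 (1.34), 0 were called.

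Among the other globins 0 of 4 were called. Myoglobin (Mb), the oxygen store of muscle, measured 813, 397 and 1237 RPKM in Scx-/- and 528, 1415 and 415 RPKM in Scx+/+ libraries, with its highest values in Scx-/- replicate 3 and Scx+/+ replicate 2. Cygb had a mean of 1.31 RPKM, and the theta genes of the alpha cluster, Hbq1a and Hbq1b, had means of 0.400 and 0.206 RPKM with 2 and 3 libraries at the fill-in value. Thus the muscle globin was highest in the libraries in which Hbb-y was lowest, and its part in the Hbb-y values was not tested.

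The pair of libraries low in Hbb-y was also the lowest pair for Slc4a1 among the 9 genes, for 13 of the 47 other erythroid identifiers (27.7%) and for 18.5% of all genes. It was the highest pair for 6 of the 47 (12.8%) and for 10.7% of all genes. The genes named next were chosen after their values were seen, for both directions. Trim10, a RING finger protein of maturing red cells, measured 1.01, 1.69 and 0.150 RPKM in Scx-/- and 0.774, 0.0949 (the fill-in value) and 1.34 RPKM in Scx+/+ libraries. Slc25a37, the mitochondrial iron importer of red cell precursors, measured 7.82, 4.74 and 2.98 RPKM in Scx-/- and 5.11, 1.59 and 6.58 RPKM in Scx+/+ libraries. Ank1, ankyrin of the red cell skeleton, was instead highest in that pair, at 1.89 and 2.29 RPKM against 0.991 to 1.35 RPKM in the other 4 libraries. So were Aqp1, at 13.9 and 15.3 RPKM against 7.88 to 11.8 RPKM, and Tmem14c, at 57.3 and 77.0 RPKM against 36.8 to 46.9 RPKM. The adult haemoglobins of that pair, 9488 and 10634 RPKM in sum, lay within the 7740 to 14118 RPKM of the other 4 libraries, although as a percent of the RPKM sum of a library all haemoglobins were lowest there, as given above.

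**Figure D4:**
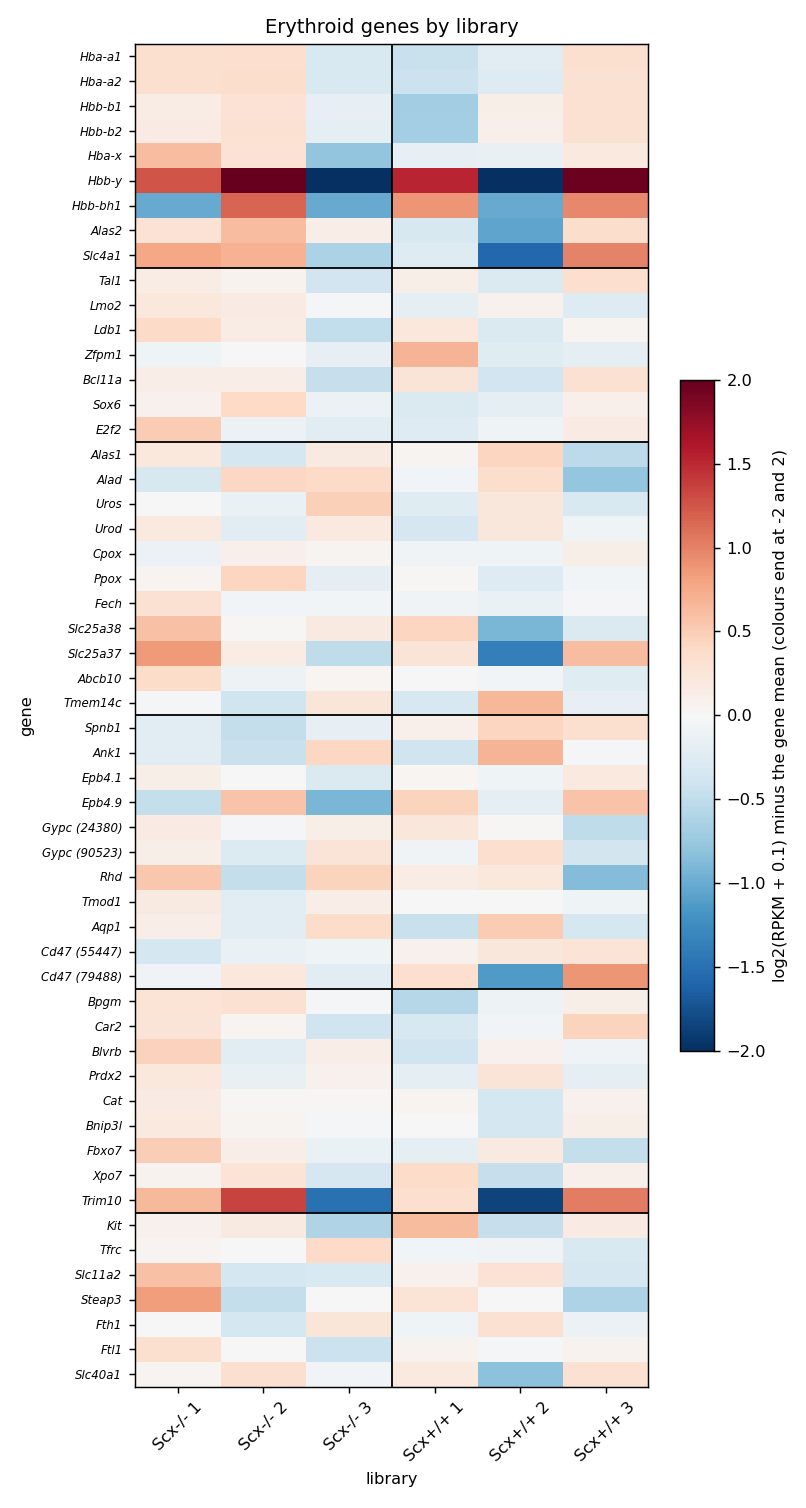
Each row is a gene and each column a library, and colour gives log2(RPKM + 0.1) minus the mean of the gene over the 6 libraries, with red above and blue below it and the scale ending at -2 and 2. Horizontal lines part the 9 genes and the 5 lists, not every gene of which is drawn, the vertical line parts Scx-/- from Scx+/+, and digits in brackets are the last of the identifier where a symbol has 2. Hbb-y and Trim10 are darkest blue in Scx-/- replicate 3 and Scx+/+ replicate 2. The 4 adult chains change far less than Hbb-y, with a highest value 1.72 to 1.98 times the lowest, near the median ratio of 1.79.

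Markers of other blood and tissue cells were summed in each library and stand beside these values. The 6 listed platelet markers summed to 6.84 to 7.79 RPKM in Scx-/- and 7.26 to 14.0 RPKM in Scx+/+ libraries, and 8 macrophage markers to 11.5 to 18.6 RPKM and 10.8 to 16.8 RPKM. The 4 listed myeloid markers summed to 2.66 to 7.05 RPKM in Scx-/- and 1.27 to 19.3 RPKM in Scx+/+ libraries. In Scx-/- replicate 3 and Scx+/+ replicate 2 that sum was carried by the neutrophil proteins S100a8 (3.84 and 11.2 RPKM) and S100a9 (2.66 and 7.30 RPKM), whereas Ngp was at the fill-in value and at 0.265 RPKM there, against 0.123 to 0.424 RPKM in the other 4. The leukocyte marker Ptprc, at 0.449 and 0.567 RPKM, lay within the 0.251 to 0.572 RPKM of the others. Of 8 fetal liver and yolk sac markers 3 were listed, and Apoa2 and Ttr were at the fill-in value in 5 and 4 libraries, while Ahsg measured 0.689 to 6.14 RPKM. The 8 endothelial markers summed to 123 to 147 RPKM in Scx-/- and 124 to 140 RPKM in Scx+/+ libraries, and the 8 valve mesenchyme markers to 600 to 799 RPKM and 516 to 615 RPKM. Of the 45 markers tested 2 were called, Cd68 among the macrophage and Lum among the valve genes, both higher in Scx-/- with an adjusted p = 0.967 (limma), beside 2.82% of all genes called higher. The part of any of these cells in the haemoglobin values was not tested.

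The genes whose pattern over the 6 libraries lay nearest to the adult haemoglobins were found by the root mean square difference of centred log2 values, among genes whose mean was 1 RPKM or more, as a description without a test. The nearest were Ddr2 (0.05), Pde6d (0.06), Carf (0.07), Bpgm (0.12) and Dync2li1 (0.13), of which Bpgm is the red cell enzyme named above, and for comparison Hba-x lay at 0.33, Alas2 at 0.46, Slc4a1 at 0.75 and Hbb-y at 2.52. Bpgm measured 12.3, 12.5 and 9.94 RPKM in Scx-/- and 6.80, 9.46 and 11.0 RPKM in Scx+/+ libraries, low like Hbb-b1 and Hbb-b2 in Scx+/+ replicate 1. Nearest to the mean of the 3 embryonic haemoglobins were the small nucleolar RNAs Snord100 (0.28) and Snora70 (0.32), then Slitrk5 (0.36), the pseudogene Bambi-ps1 (0.37) and Slit2 (0.47). Snord100 measured 5.94, 12.1 and 0.905 RPKM in Scx-/- and 10.8, 2.04 and 7.88 RPKM in Scx+/+ libraries, and so was low in the same pair as Hbb-y. Hbb-y itself lay at 1.39 from that mean and Hba-x at 0.99. This distance grows with the size of the changes as well as with their direction. It therefore cannot tell whether the 3 embryonic chains rose and fell in the same libraries. With 6 libraries and 13827 genes compared, such likeness says nothing of shared function.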

How the data were processed

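Total RNA of AVC regions from 3 Scx-/- and 3 Scx+/+ embryos was sequenced on an Illumina instrument. The authors aligned the reads to mm9 with TopHat 1.4.1, counted reads in Ensembl exons with easyRNASeq, kept genes with enough reads in at least 1 library, replaced low values and deposited RPKM. That fill-in value was found at 0.0949 RPKM in 8395 values. RPKM are scaled to total reads, so an abundant RNA lowers all other values of its library. Columns were assigned to libraries by their labels (0 columns of other samples).

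Of 18810 identifiers, 18695 were in the mm9 annotation used for exon lengths and coordinates. Dividing out exon length and depth turned RPKM back into reads, and 98.45% to 98.57% of values under 1000 reads came out within 0.1 read of a whole number. No count test was run. The main test was limma 3.58.1 (R 4.3.3) on log2(RPKM + 0.1) with a trend of the variance on intensity, adjusted by Benjamini-Hochberg over the 18810 genes. Genes were called at an unadjusted p below 0.05. Folds on this scale understate changes of low genes. Shares, ratios and sums were computed within each library and not tested. P-values measure the spread between these embryos.

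The members, lists and rules were chosen with earlier results of these data known. Named are all members, the 4 genes with the highest mean of each list and any called gene, and the 5 genes nearest to each of 2 haemoglobin profiles. Others are said to be chosen after their values were seen, or, for Hbb-bh3, not to be planned. The alternatives tried were a pseudocount of 0.01 or 1, a filter at a mean of 1 RPKM (13827 genes), no trend, analysis of variance on RPKM and on its log2, quantile normalization, medians set to 0, replicate number as a block, Xist as a sex covariate, each library left out, and, added after seeing the data, Scx-/- replicate 3 and Scx+/+ replicate 2 left out together. The steps were tested on simulated data. Python 3.11.15, numpy 2.4.6, pandas 2.3.3 and matplotlib 3.10.9 did the rest. Exon-level data and cultured cells of the study were not analysed here. Some genes of the lists are counted in the sums but not reported singly here.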

Additional observations from a re-analysis of the deposited data

How the results depend on the processing

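Across the alternatives, no log2 fold change of the 4 adult chains, Hba-x, Hbb-y, Hbb-bh1 or Slc4a1 passed the test, and Alas2 passed in 1 setting. Without Scx+/+ replicate 3, Alas2 was called (1.04, unadjusted limma p of 0.0154), so that leaving out 1 library gave 0 to 1 called members. Values that changed sign were Hbb-b1 (-0.12) and Hbb-b2 (-0.10) without Scx+/+ replicate 1 (0.42 and 0.43 without both Scx-/- replicate 3 and Scx+/+ replicate 2), Slc4a1 (-0.091) without Scx+/+ replicate 2 (1.19 without Scx+/+ replicate 3), and Hba-x under quantile normalization (-0.034), with medians set to 0 (-0.036) and without Scx-/- replicate 1 (-0.22) or 2 (-0.05; 0.49 without replicate 3). Hbb-y turned to 1.87 without Scx-/- replicate 3, 0.61 and 0.84 without Scx+/+ replicates 1 and 3, 0.19 without both and -1.80 without Scx+/+ replicate 2. Of the other 47 erythroid genes, 1 was called in the main test, 2 by analysis of variance on log2 RPKM, 3 on RPKM, 0 with sex as a covariate, 0 without both libraries, and 0 to 1 without any single library. Over all genes 731 were called, 539 to 1549 without any single library (1549 without Scx+/+ replicate 2) and 1587 without both; the cause was not tested. Of the 731, 531 were higher in Scx-/-, against 352 of 705 after quantile normalization and 281 of 646 with medians set to 0. The genotype differences of the shares and sums had no test and moved by less than 1 SD between libraries, which is wide. Over the single libraries left out, the embryonic beta share went from -0.65 to 0.38 percentage points (main -0.11), that of the alpha-like chains from -0.057 to 0.0067 (main -0.024), the chain ratio from -0.091 to 0.16 (main 0.041) and the summed haemoglobin from 84.3 (without Scx+/+ replicate 1) to 3180 RPKM (main 1589).

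With the replicate number as a block, 573 genes were called over all genes, 0 of the 9 members and 0 of the other 47 erythroid genes. The numbers pair nothing in the labels. Deviations of same-numbered libraries from their genotype means correlated at 0.09, -0.22 and -0.19. Between libraries of unlike number the correlations ran from -0.26 to 0.32, highest for Scx-/- replicate 3 with Scx+/+ replicate 2. With so few libraries per mean, these values cannot tell whether any libraries shared a litter or a processing batch.

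Depth limited Hbb-bh1, at 23 to 32 reads where it was above the fill-in value, and the 3 libraries per genotype limited every other comparison.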
